A study of Homo sapiens with 6 samples.

Results

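The baseline transcriptome of 22RV1, an established prostate cancer line of human origin, was described from the control libraries of a knockdown study. The control cells stably expressed shLuc, a short hairpin RNA against luciferase, and grew in RPMI-1640 medium with 10% fetal bovine serum. They make up 2 of the study's 6 libraries. The other 4 came from cells with a hairpin against IMPA1 (shIMPA1) or IMPDH2 (shIMPDH2), under the same growth conditions, and entered only where stated. All libraries were made from poly(A) RNA. The labels name 1 stable control line and do not say whether its 2 libraries came from separate cultures, so the spread between them may be technical. All 17811 genes of the authors' table were used, and 14128 of them were protein coding. The levels are described without a test of one group against another. Reads of the knockdown libraries are given only for genes at or near 0 in the control.

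The control libraries held 27405563 and 27773294 reads over the listed genes. Levels are given as TPM, a measure of transcript abundance that divides reads by exon length and scales each library to the same total, so that genes can be set side by side. They were computed here from the recovered reads of each library, with replicate 1 first and replicate 2 second wherever a pair of values is given. Every listed gene but 10 averaged at least 5 normalized reads over the 6 libraries, so the table holds genes with some expression somewhere in the study. A gene without a row in it was not analysed here, and its level is not known. The median listed gene stood at 10.6 and 11.3 TPM. Counting used uniquely placed reads, so genes with near-identical copies are uncertain, and reads of overlapping or antisense genes cannot be told apart.

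Prostate luminal cells are secretory epithelial cells that line the prostatic ducts. Their identity rests on androgen signalling together with transcription factors such as the pioneer factor FOXA1 and the homeobox factor HOXB13. Androgens induce secretory genes such as the kallikrein proteases KLK2 and KLK3, the latter known as prostate-specific antigen. Basal cells lie under them and carry TP63 and high-molecular-weight keratins, while rare neuroendocrine cells carry chromogranins and synaptophysin. 22RV1 came from a relapsed xenograft and grows without androgen. Gene-level reads cannot separate the splice forms of a gene.

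The sequences shown first are the starts of the most abundant nuclear messages, most of which encode the translation machinery. Messages of ribosomal proteins are known to begin with an oligopyrimidine tract, through which their translation is coupled to nutrient signalling. Each stretch below runs from 20 bases before the annotated start to 40 after it, 5′ to 3′ on the gene's strand, from RefSeq (GRCh38.p14). Capitals mark the pyrimidine letters CTTTCC. The positions are chr1:153990742-153990801 for RPS27, chr6:132814549-132814608 for RPS12, chr4:151099608-151099667 for RPS3A and chr19:49487588-49487647 for RPL13A, all on the plus strand.
RPS27: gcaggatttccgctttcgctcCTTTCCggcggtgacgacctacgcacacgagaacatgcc
RPS12: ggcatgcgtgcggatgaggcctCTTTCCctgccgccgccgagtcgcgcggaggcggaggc
RPS3A: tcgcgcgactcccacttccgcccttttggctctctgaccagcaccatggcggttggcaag
RPL13A: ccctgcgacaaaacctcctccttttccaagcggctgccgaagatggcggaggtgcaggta

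RPS27 and RPS12, the most abundant ribosomal protein genes by TPM, held these letters around the start, and RPS3A and RPL13A did not. Of 7 abundant ribosomal protein genes whose start windows were read, 2 held them, RPS27 and RPS12, and RPL41, RPS18 and RPS25 also did not. RefSeq gave windows for 62 of the 77 ribosomal protein genes, some with several starts. Of their 77 windows, 26 (33.8%) held CTTTCC on the sense strand within the same 60 bases. Among all 17787 windows of 12327 listed genes the share was 2.70%. Only these exact letters were searched. A window without them can hold another pyrimidine run, such as cttttcc in RPL13A or ccctttt in RPS3A. The counts are therefore not counts of oligopyrimidine tracts. The match is a description of letters and no measure of translation.

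The kallikrein windows are shown because KLK2 and KLK3 are well-known androgen-induced genes. KLK2 averaged 16.9 TPM in these cells and KLK3 7.93, on either side of the median of all listed genes. Each runs from 250 bases before the start to 50 after it, on the plus strand, at chr19:50873189-50873488 for KLK2 and chr19:50854665-50854964 for KLK3 (RefSeq, GRCh38.p14). Capitals mark GAACAGCAAGTGCT, which lies within the androgen response element described in the KLK3 promoter. The letters were read from the KLK3 window, so their presence there was given. The base just before them is g in KLK2 and a in KLK3. A string begun at that base of KLK3 would not have matched KLK2, so the match in KLK2 also depends on where the string was cut.
KLK2: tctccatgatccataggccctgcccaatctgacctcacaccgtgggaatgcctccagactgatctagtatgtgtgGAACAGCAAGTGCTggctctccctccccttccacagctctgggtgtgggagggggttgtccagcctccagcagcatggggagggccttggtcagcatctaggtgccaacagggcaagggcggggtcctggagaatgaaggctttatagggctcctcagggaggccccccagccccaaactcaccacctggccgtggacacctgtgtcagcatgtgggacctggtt
KLK3: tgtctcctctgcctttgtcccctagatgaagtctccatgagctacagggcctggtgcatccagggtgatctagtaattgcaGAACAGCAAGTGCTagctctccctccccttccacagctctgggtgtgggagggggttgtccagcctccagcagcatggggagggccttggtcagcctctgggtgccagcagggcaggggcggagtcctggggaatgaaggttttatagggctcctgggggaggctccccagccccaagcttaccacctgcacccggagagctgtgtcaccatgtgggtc

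On either strand, these 14 letters were in 2 of the 17787 windows (0.0112%), those of KLK2 and KLK3. KLK4, whose level was far higher than that of either, had 2 windows and neither held them. Only this exact string was searched. Its absence therefore does not show that a window lacks an androgen response element. Binding of factors to DNA was not measured in these libraries.

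Levels spanned from 0 reads to 15908 TPM in TMSB10, and a small set of genes took a large part of the total. Of the listed genes, 15923 (89.4%) averaged at least 1 TPM, 9245 at least 10 and 1648 at least 100. Counts from the marker and receptor lists below are to be read beside these. The 133 genes at or above 1000 TPM were 0.749% of the genes and held 34.6% and 32.9% of the level in the libraries. The 100 most abundant genes held 30.9% and 29.3%, and 388 and 443 genes sufficed for 50%. On the side of low levels, 1827 genes averaged under 1 TPM. Protein-coding genes held 92.3% and 93.5% of the level.

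**Figure D1:**
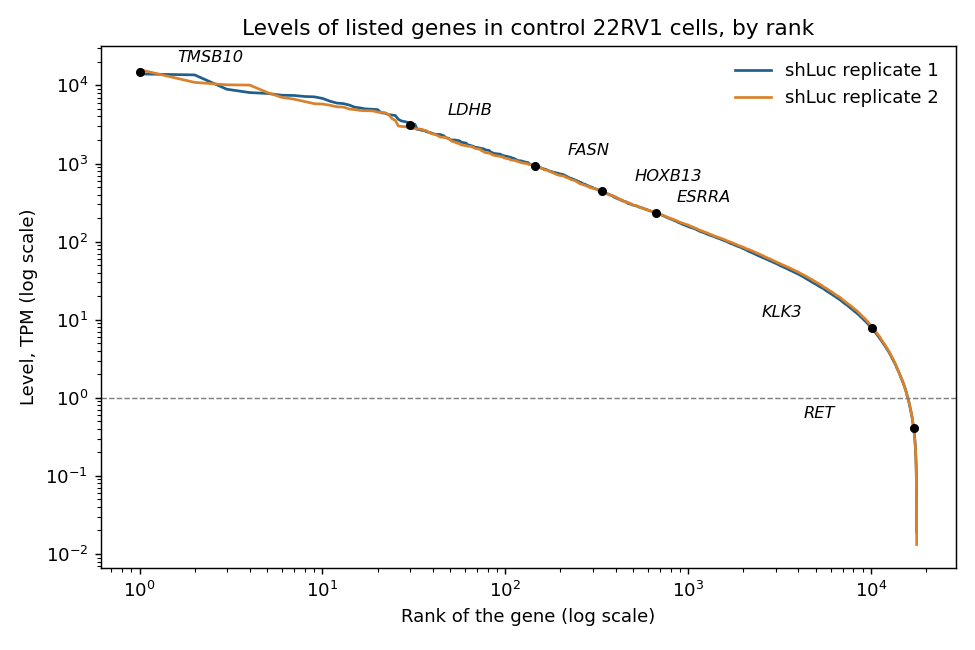
Level of each listed gene in TPM (log axis) against its rank (log axis), with 1 line per shLuc library and the dashed line at 1 TPM. Named points are means of both libraries: TMSB10 ranked 1, LDHB 30, HOXB13 338, ESRRA 665 and KLK3 10112.

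TMSB10, thymosin beta 10, which binds actin monomers, was the most abundant gene at 14022 and 15908 TPM. Of the 10 most abundant nuclear genes, 7 encode ribosomal proteins, 1 is a ribosomal protein pseudogene, and EEF1A1 is the elongation factor that brings aminoacyl-tRNA to the ribosome. RPS27 stood at 13636 and 10180 TPM, RPS12 at 8101 and 7032, and RPS2 at 7433 and 6665. EEF1A1 stood at 5164 and 5572 TPM and drew the most reads of any gene, 264211 and 279659. RPL41 stood at 6277 and 5282 TPM. Beside it, RPL41P1, its pseudogene of 81 bases, was listed at 5847 and 4992, and their reads may be shared.

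All 77 cytosolic ribosomal protein genes had a row. Together they held 15.4% and 13.9% of the level, and their median was 1166 TPM. The lowest, RPL28, stood at 175.6 and 199.9 TPM. Of the 77 genes, 46 were higher in replicate 1 and 31 in replicate 2. Among all listed genes, 6272 were higher in replicate 1 and 11471 in replicate 2. Other abundant nuclear genes had separate functions. HMGB2, a chromatin protein of dividing cells, stood at 3383 and 3021 TPM. The chaperone HSP90AA1, part of the complex that holds steroid receptors before they bind ligand, was at 2643 and 2392. TPI1, a glycolytic enzyme, was at 2556 and 2435, and the elongation factor EEF2 at 2366 and 2665.

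Mitochondrially encoded genes are given apart because they come from many genome copies per cell. Their 13 mRNAs held 5.97% and 6.83% of the level. Subunits of cytochrome c oxidase led them, with MT-CO1 at 8935 and 10941 TPM and MT-CO2 at 7888 and 10108. MT-ND2, a subunit of complex I, was the lowest at 1835 and 2035. Mitochondrial tRNA genes held a further 2.69% and 1.86%. At lengths of under 100 bases, these tRNA levels are not reliable on a length scale. Of 77 nuclear genes of the respiratory chain and ATP synthase, 76 had a row, all at 10 TPM or more, with 4.03% and 3.57% of the level. ATP5F1B, the catalytic beta subunit of ATP synthase, was the highest at 2722 and 2969 TPM.

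Long noncoding RNAs were led by hosts of small nucleolar RNAs. SNHG29 stood at 837 and 766 TPM, SNHG8 at 733 and 553, and GAS5 at 391 and 366. MALAT1, a nuclear-retained RNA, was at 231 and 180 TPM. SCHLAP1, a prostate cancer lncRNA, was listed at 9.47 and 10.3.

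All 18 luminal transcription factors had a row and stood at 1 TPM or more, 12 of them at 10 or more. Their median was 28.7 TPM, beside 11 for all listed genes. HOXB13 (chromosome 17, 48724763 to 48729178, GRCh38) stood at 402 and 477 TPM. FOXA1, which opens chromatin to steroid receptors, stood at 197 and 244 TPM. The values of HOXB13 lay above those of FOXA1 in both libraries. GATA2, a zinc finger factor, was at 70.5 and 83.9 TPM, and the ETS factor SPDEF at 63.7 and 70.5. The lowest members were SOX9 at 3.40 and 4.61 TPM and GATA3 at 1.76 and 2.76.

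HOXB13 also stood apart within the homeobox clusters, a list that was added after values were seen. Of 39 HOX genes, 31 had a row, 29 were at 1 TPM or more and 12 at 10 or more. After HOXB13 the highest was HOXA5 at 28.0 and 34.4 TPM, followed by HOXB7 at 25.0 and 27.5. Only 3 genes of the HOXD cluster, HOXD8, HOXD9 and HOXD13, had a row.

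**Figure D2:**
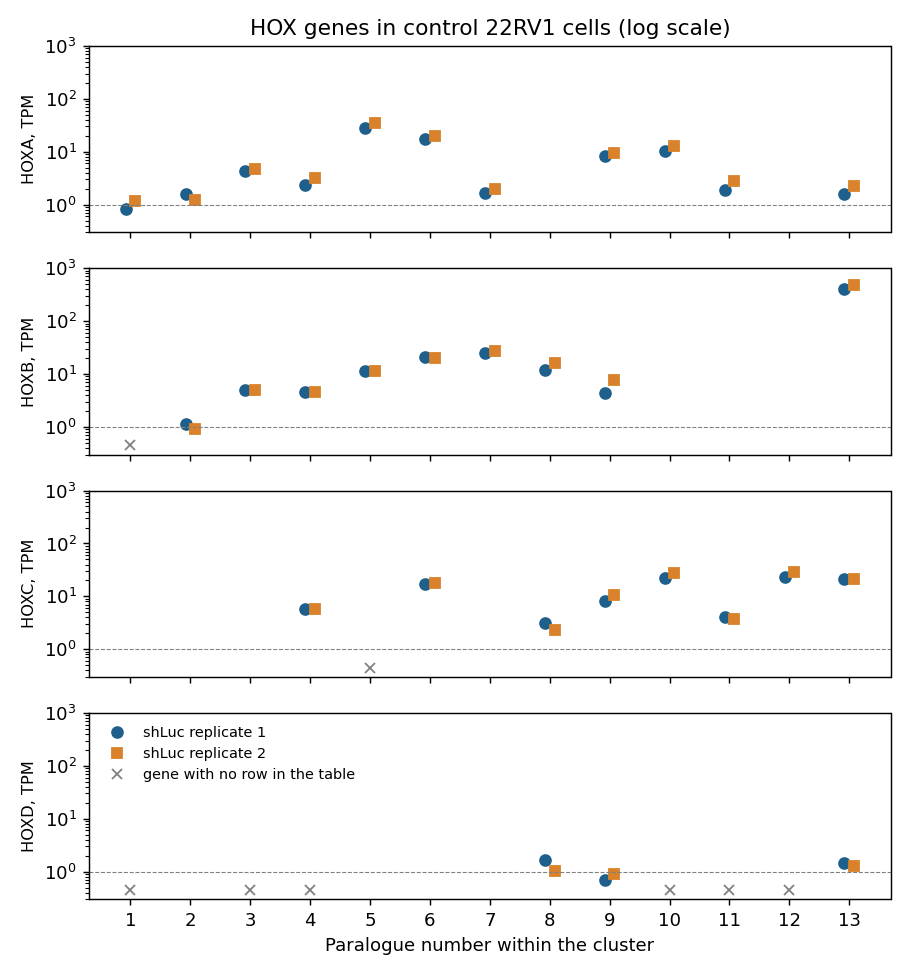
Level of HOX genes in TPM (log axis) by paralog number, with 1 panel per cluster and 1 point per shLuc library. HOXB13 lies at 402 and 477 TPM, above every other listed HOX gene, and crosses at the foot of an axis mark genes with no row and carry no value.

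Among the ETS oncogenes, ETV4 stood at 26.0 and 31.6 TPM, ETV1 at 12.2 and 14.4, and ETV5 at 10.5 and 12.9. ERG, the factor most often joined to TMPRSS2 in prostate cancer, and FLI1 had no row.

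Epithelial genes were high. KRT8, the luminal keratin that pairs with KRT18, stood at 1344 and 1256 TPM, and KRT18 at 292 and 359. The tight junction gene CLDN7 was at 294 and 309 TPM, CLDN4 at 229 and 239, and EPCAM, an adhesion protein of simple epithelia, at 193 and 194. CDH1, which encodes E-cadherin, was at 92.6 and 109. In all, 13 of 14 luminal keratin and epithelial genes had a row, with a median of 101 TPM. RAB25 had no row.

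Basal genes were low. Of 11, 9 had a row, 4 reached 1 TPM and 0 reached 10, with a median of 0.926 TPM. NGFR was the highest, at 2.80 and 2.71. The basal keratins were at or near zero. KRT5 had 1 and 2 reads, KRT14 0 and 1, KRT15 0 and 4, and KRT6A 0 and 0. These keratins had a row through reads in the knockdown libraries. Summed over those libraries, KRT5 had 247 reads, KRT14 146, KRT15 154 and KRT6A 67. Their low place, and their part in the median of the basal list, therefore follow in part from how the table was made. KRT8 and these keratins lay at opposite ends of the listed range. TP63 and KRT17 had no row. Of the 55 keratin genes searched, 41 had no row, and 4 of the 14 with a row reached 10 TPM.

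**Figure D3:**
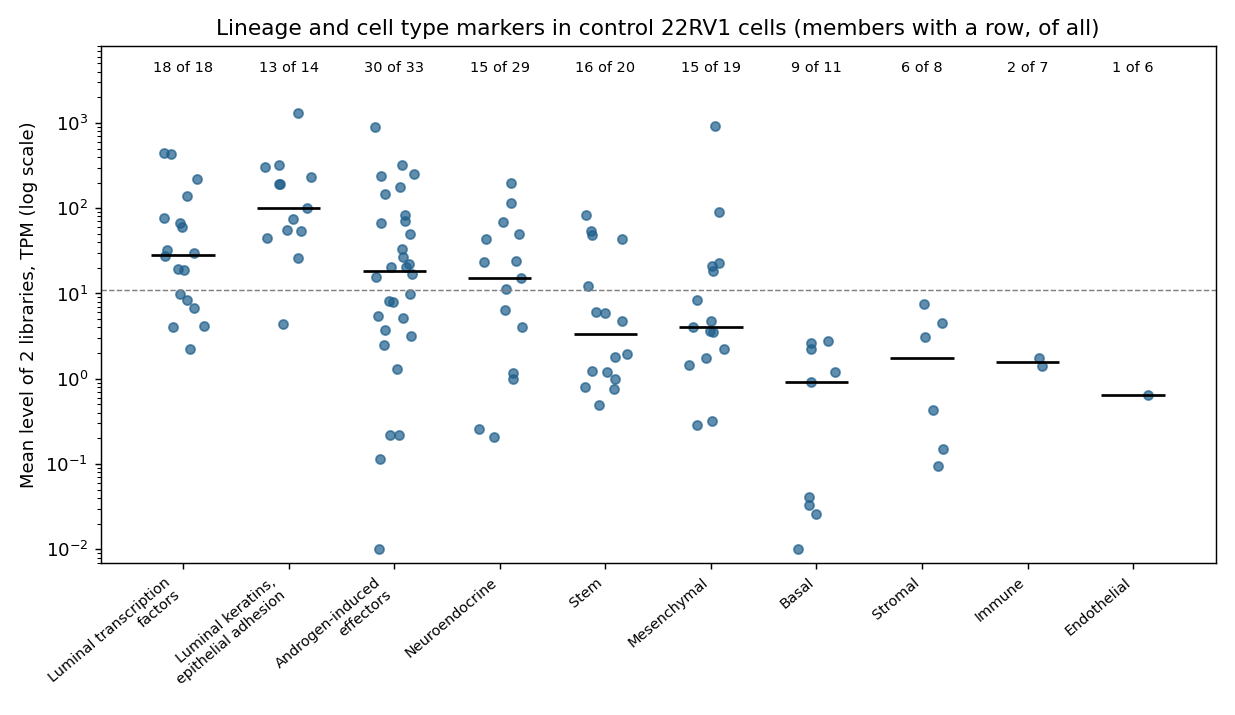
Mean TPM (log axis) of each listed member of the marker lists in shLuc, with bars at list medians, a dashed line at the median of all listed genes (11 TPM) and the number of members with a row above each list. Genes at 0 reads are drawn at 0.01. Luminal factors have a median of 28.7, epithelial genes 101 and basal genes 0.926. The basal list includes keratins that had a row through reads in the knockdown libraries.

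Genes known to respond to androgen were spread over a wide range. Of 33, 30 had a row, 26 were at 1 TPM or more, 17 at 10 or more and 6 at 100 or more, with a median of 18.6 TPM. At 1 TPM or more stood 86.7% of those with a row, beside 89.4% of all listed genes. At 10 TPM or more stood 9245 of all 17811 listed genes. STEAP1, a protein of the cell surface, stood at 969 and 822 TPM, and FOLH1, known as prostate-specific membrane antigen, at 310 and 326. PLPP1, a lipid phosphatase, was at 233 and 271, and KLK4, a secreted protease, at 217 and 266. FKBP5, a cochaperone of steroid receptors, stood at 62.4 and 79 TPM.

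Several other products of the gland, named here, stood lower than KLK4. KLK2 was at 18.2 and 15.5 TPM and KLK3 at 7.89 and 7.97, so KLK3 ranked 10112 among the listed genes. TMPRSS2, a membrane serine protease, was at 7.41 and 8.89 TPM, and ACP3, prostatic acid phosphatase, at 4.82 and 5.94. MSMB, a secreted protein of the prostate, had 0 reads in both libraries. For this gene, 3 reads in a library equal 0.709 and 0.723 TPM, which is a scale and not an upper bound. PCA3, a prostate-specific lncRNA, was at 0.15 and 0.08 TPM. TRPM8, PSCA and TRPV6 had no row. KLK2 and KLK3 are close relatives, and reads that fit both were not counted.

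Some neuroendocrine markers were expressed in the same libraries. Of 29 genes, 15 had a row and 9 stood at 10 TPM or more, beside 9245 of all 17811 listed genes. At 1 TPM or more stood 12, or 80% of those with a row, beside 89.4% of all listed genes. SOX2 averaged 0.98 TPM, POU2F3 0.26 and ELAVL4 0.21. ENO2, neuronal enolase, stood at 184 and 214 TPM, and SYP, synaptophysin of secretory vesicles, at 119 and 113. SRRM4, a neural splicing factor, was at 66.9 and 71.1 TPM. The granule proteins CHGB and CHGA were at 39.3 and 46.9 and at 22.5 and 26.0. DLL3, a Notch ligand of neuroendocrine tumours, was at 23.6 and 23.2. The other 14 had no row, among them the factors NEUROD1, INSM1 and FOXA2 and the genes NCAM1, SCG5, STMN2, UCHL1, PCSK1, PCSK2, SST, GRP, NTS and CEACAM5.

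Of 19 mesenchymal genes, 15 had a row and 5 of these stood at 10 TPM or more, beside 9245 of all 17811 listed genes. At 1 TPM or more stood 13, or 86.7% of those with a row, beside 89.4% of all listed genes. The median of the mesenchymal list was 4.06 TPM. LGALS1, a galectin found in many cell types, stood at 911 and 941 TPM. TWIST1, a transcription factor of mesenchymal cells, was at 90.3 and 88.6. VIM, vimentin, was at 16.5 and 19.8 TPM and FN1, fibronectin, at 3.83 and 4.29. ZEB2, SNAI2, TWIST2 and SPARC had no row. Of 20 stem cell genes, 16 had a row and 5 stood at 10 TPM or more. SOX2, LGR5, LIN28A and ALDH1A3 averaged under 1 TPM. The median of the stem cell list was 3.36 TPM, beside 11 for all listed genes. EZH2, the histone methyltransferase of Polycomb, was the highest at 80.1 and 86.1 TPM. NES stood at 49.1 and 60, SOX4 at 45.5 and 51.4 and BMI1 at 45.0 and 41.4. CD44 was at 1.80 and 2.14, and PROM1, NANOG, LIN28B and PSCA had no row.

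Defining markers of other cell types averaged under 10 TPM, apart from KRT10. Of stromal genes, 6 of 8 had a row, led by LUM at 8.04 and 7.05 TPM. Of endothelial genes, CLDN5 alone of 6 had a row, at 0.746 and 0.553. Of immune genes, 2 of 7 did, among them LYZ at 1.71 and 1.07, and PTPRC, the marker of all leukocytes, did not. KRT10, a skin keratin, was the highest gene of the hepatic, squamous and neural list at 13.7 and 13.1 TPM. Markers of lung, kidney, gut and bladder reached at most 2.79 TPM on average.

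Of 48 nuclear receptors, 37 had a row, 30 stood at 1 TPM or more and 17 at 10 or more. Their median was 8.5 TPM, beside 11 for all listed genes. At 1 TPM or more stood 81.1% of those with a row, beside 89.4% of all listed genes. ESRRA, an orphan receptor of mitochondrial energy genes, led at 247 and 222 TPM. NR2F6 followed at 164 and 192, and their values did not overlap. NR1H2, an oxysterol receptor, stood at 83.0 and 84.5 TPM and RXRB, a shared partner of many receptors, at 70.8 and 68.4.

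Further down, neighbours often could not be ordered: 15 of the 36 adjacent pairs overlapped between libraries. RARG at 39.1 and 45.8 TPM and NR2F1 at 35.7 and 44.9 were such a pair. The glucocorticoid receptor NR3C1 stood at 7.49 and 9.45 TPM, and the mineralocorticoid receptor NR3C2 at 5.10 and 6.57. The estrogen receptor gene ESR2 was at 0.19 and 0.17 TPM. ESR1 and PGR had no row, and neither did NR0B1, NR0B2, PPARG, NR1H4, NR1I2, HNF4A, RXRG, NR2E1 and NR5A1.

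**Figure D4:**
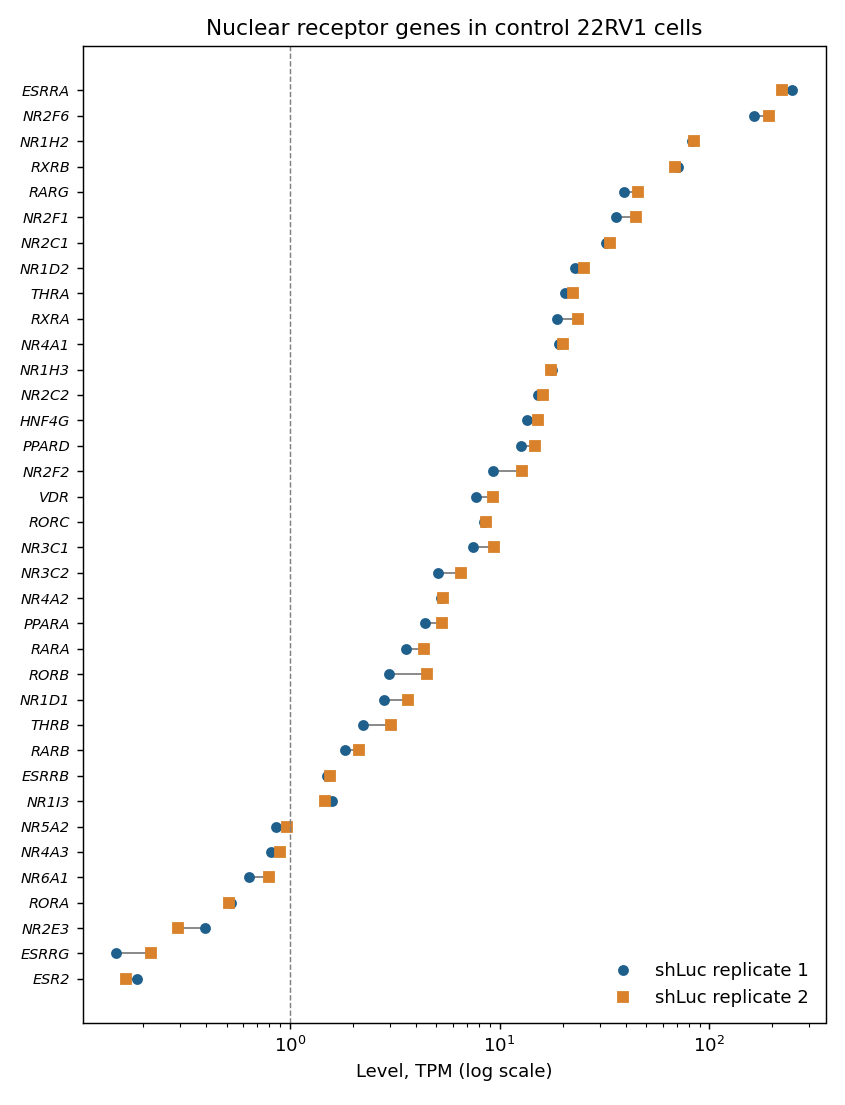
Level of 36 of the 37 nuclear receptors with a row, in TPM (log axis), ordered by mean, with 1 point per shLuc library and a dashed line at 1 TPM. ESRRA and NR2F6 lie above 100 TPM, and ESR2 lies at 0.19 and 0.17.

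The androgen supply list covers enzymes and carriers that make, activate or remove androgens. Of 22 members, 8 had a row. HSD17B10, a mitochondrial dehydrogenase with several substrates, stood at 462 and 469 TPM, and HSD17B4, a peroxisomal enzyme, at 80.8 and 96.4. Of the steroid 5-alpha reductases that make dihydrotestosterone, SRD5A1 was at 12 and 14.9 TPM. SRD5A3, which acts in protein glycosylation, was at 49.1 and 47.4. AKR1C3, which makes testosterone from androstenedione, was at 3.33 and 3.69, and UGT2B15, which conjugates androgens, at 5.93 and 5.36. The other 14 had no row: SRD5A2, HSD3B1, HSD3B2, HSD17B3, CYP17A1, CYP11A1, CYP19A1, AKR1C1, AKR1C2, AKR1C4, UGT2B17, UGT2B28, SULT2A1 and SLCO1B3.

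The chaperones and coregulators of steroid receptors were assembled as lists after values were seen. Of the chaperones, HSP90AB1 stood at 1179 and 1452 TPM, HSPA8 at 1161 and 1163, FKBP4 at 476 and 540 and PTGES3 at 400 and 447. All 11 coregulators had a row, between 4.78 and 52.8 TPM on average. KDM1A, a histone demethylase, led them at 48.5 and 57.1.

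Receptor tyrosine kinases were lower than the nuclear receptors at the top. Of 58, 41 had a row, 33 stood at 1 TPM or more, 15 at 10 or more and 0 at 100 or more, with a median of 6.43 TPM. At 1 TPM or more stood 80.5% of those with a row, beside 89.4% of all listed genes. DDR1, a collagen receptor, led at 61.1 and 72.2 TPM, followed by ERBB3, the neuregulin receptor, at 50.6 and 58.9. EPHB4 was at 34.5 and 41.8 and RYK, a Wnt coreceptor, at 34.1 and 34.4. ERBB2, the partner of ERBB3, was at 20.5 and 23.0 TPM. EGFR at 4.82 and 5.10 and MET at 4.53 and 4.50 stood lower.

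The insulin receptor INSR was at 7.5 and 9.24 TPM and IGF1R at 2.66 and 2.53. RET was at 0.42 and 0.39. In 21 of 40 adjacent pairs of kinases the libraries overlapped. A total of 17 had no row: PDGFRA, PDGFRB, CSF1R, FLT3, FLT1, KDR, FGFR2, NTRK3, ROR2, MUSK, AXL, TIE1, TEK, EPHB6, ROS1, LTK and ALK.

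In 3 other receptor families most members had a row. All 13 receptors for TGF-beta and BMP ligands had a row, and 3 reached 10 TPM, namely ACVR1B at 27.9 and 32.4, BMPR1A at 23.8 and 25.2 and BMPR1B at 16.8 and 21.2. TGFBR2, which binds TGF-beta itself, was at 2.42 and 2.62. Of the Wnt, Notch and Hedgehog receptors, 21 of 22 had a row, led by the Wnt receptor FZD6 at 50.5 and 44.2 TPM, and FZD10 had none. NOTCH3 was the highest Notch receptor, at 14.4 and 16.5. All 19 cytokine and death receptors stood at 1 TPM or more, as did 89.4% of all listed genes. PRLR, the prolactin receptor, led at 71.5 and 80.2, followed by TNFRSF10B, a receptor for the death ligand TRAIL, at 42.7 and 47.9, IFNGR1 at 45.2 and 43.5 and TNFRSF21 at 36.8 and 45.6.

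Surface proteins that therapies are aimed at, a list made after values were seen, were led by STEAP1. CD46, a complement regulator, stood at 717 and 699 TPM, and CD276, an immune checkpoint protein, at 30.1 and 36.1. NECTIN4 was at 2.12 and 2.57 TPM.

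Many metabolic steps have several isoenzymes, and the share held by each was computed within 60 families. In 48 families at least 2 members had a row. In 16 of these the leading member held 90% or more of the family's level in both libraries, and in 14 it held under 60% in both. A share covers only members with a row, and RNA levels are not enzyme activities.

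Lactate dehydrogenase interconverts pyruvate and lactate, with LDHA the usual leading isoenzyme of glycolytic tumours and LDHB that of oxidative tissue. LDHB (chromosome 12, 21635342 to 21757857, GRCh38) stood at 3183 and 2982 TPM, rank 30 of all listed genes. LDHA (chromosome 11, 18394388 to 18408425) stood at 256 and 291. LDHB thus held 92.6% and 91.1% of the family, 12.4-fold and 10.2-fold above LDHA. The size of this lead depends on the length used. LDHB held 89.5% with the longest transcript as length and 84.4% by reads alone.

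The start regions of this pair are shown because the family's split was steep. The windows are chr11:18396101-18396400 on the plus strand for LDHA, the second of its 2 starts, and chr12:21657793-21658092 on the minus strand for LDHB (RefSeq, GRCh38.p14), each 5′ to 3′ on the gene's strand from 250 bases before the start to 50 after it. Capitals mark CG dinucleotides, the letters that DNA methylation acts on.
LDHA: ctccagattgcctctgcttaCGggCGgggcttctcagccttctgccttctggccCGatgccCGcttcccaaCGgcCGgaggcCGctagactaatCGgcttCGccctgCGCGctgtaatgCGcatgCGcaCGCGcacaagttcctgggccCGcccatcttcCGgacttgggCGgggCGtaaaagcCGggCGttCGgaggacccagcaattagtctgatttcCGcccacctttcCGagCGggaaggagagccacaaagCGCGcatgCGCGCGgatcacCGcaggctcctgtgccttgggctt
LDHB: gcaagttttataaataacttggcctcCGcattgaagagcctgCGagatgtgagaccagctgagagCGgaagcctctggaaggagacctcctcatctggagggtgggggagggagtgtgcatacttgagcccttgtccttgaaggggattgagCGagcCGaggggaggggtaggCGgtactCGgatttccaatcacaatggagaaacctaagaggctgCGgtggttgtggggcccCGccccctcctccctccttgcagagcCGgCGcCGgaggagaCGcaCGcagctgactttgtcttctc

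LDHA had 31 CG in this window and 29 in its other one, and LDHB had 14. Across all windows the median was 24 CG. It was 26 for genes at 100 TPM or more and 15 for genes under 1 TPM, so LDHB, the abundant member of this pair, lay below the median of both. Methylation was not measured.

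Glycolysis otherwise showed mixed use. PDK4, which blocks pyruvate oxidation by phosphorylating pyruvate dehydrogenase, stood at 333 and 404 TPM and held 95.9% and 95.9% of its family. Of the glucose transporters, SLC2A12 led with 47.4 and 54.7 TPM, and SLC2A1, a common glucose transporter of tumours, stood at 19.3 and 22.0. HK1 held 49.3% and 55.1% of the hexokinases. PFKM held 49.2% and 52.1% of the phosphofructokinases and PFKL 44.2% and 41.0%, and PFKL led by reads alone. ALDOA held 87.1% and 88.5% of the aldolases and ENO1 70.9% and 69.6% of the enolases, where ENO2 was next. PKM, at 425 and 430 TPM, was the only listed pyruvate kinase. Gene-level reads cannot separate its splice forms.

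In a list of citrate and lipid synthesis genes made after values were seen, all 12 genes stood above 10 TPM, 8 of them at 100 or more. Of all 17811 listed genes, 9245 stood at 10 TPM or more and 1648 at 100 or more. Because the members were chosen with their values known, these counts only describe them. FASN, fatty acid synthase, stood at 861 and 1020 TPM. The mitochondrial citrate carrier SLC25A1 was at 206 and 255, and ACLY, which splits citrate to acetyl-CoA, at 212 and 245. SCD held 96.2% and 96.8% of the stearoyl-CoA desaturases, and ACACA 83.5% and 85.0% of the acetyl-CoA carboxylases.

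Families of folate and amino acid metabolism ranged from a single leader to an even split, as in the aspartate aminotransferases, where GOT1 held 51.5% and 49.5%. SHMT2, which makes glycine from serine in mitochondria, stood at 429 and 470 TPM, and cytosolic SHMT1 at 36.7 and 40.6. MTHFD2 held 95.9% and 96.4% over MTHFD2L. SLC7A5, an exchanger of large neutral amino acids, held 94.1% and 94.7% over SLC7A8. CKB, brain creatine kinase, stood at 737 and 866 TPM and held 93.3% and 92.8%. GLUD1 held 99.5% and 99.7% over GLUD2, a near-identical copy, so that share is uncertain.

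The genes targeted by the other hairpins of the study were both expressed. IMPDH2 (chromosome 3, 49024325 to 49029408), which commits IMP to guanine nucleotides, stood at 199 and 246 TPM. Its paralog IMPDH1 stood at 77.2 and 92.5, so IMPDH2 was 2.58-fold and 2.66-fold higher. IMPA1 (chromosome 8, 81657961 to 81686693), which frees inositol from its phosphate, stood at 56.3 and 48.5 TPM, and IMPA2 at 41.9 and 41.3. IMPA1 held 57.4% and 54.0% of that pair, and IMPA2 led when the longest transcript replaced the exon length. For nucleotides, GMPR2 held 93.5% and 90.7% of the GMP reductases, TK1 96.2% and 95.8% of the thymidine kinases, and RRM2 90.2% and 90.8% of the small subunits of ribonucleotide reductase.

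**Figure D5:**
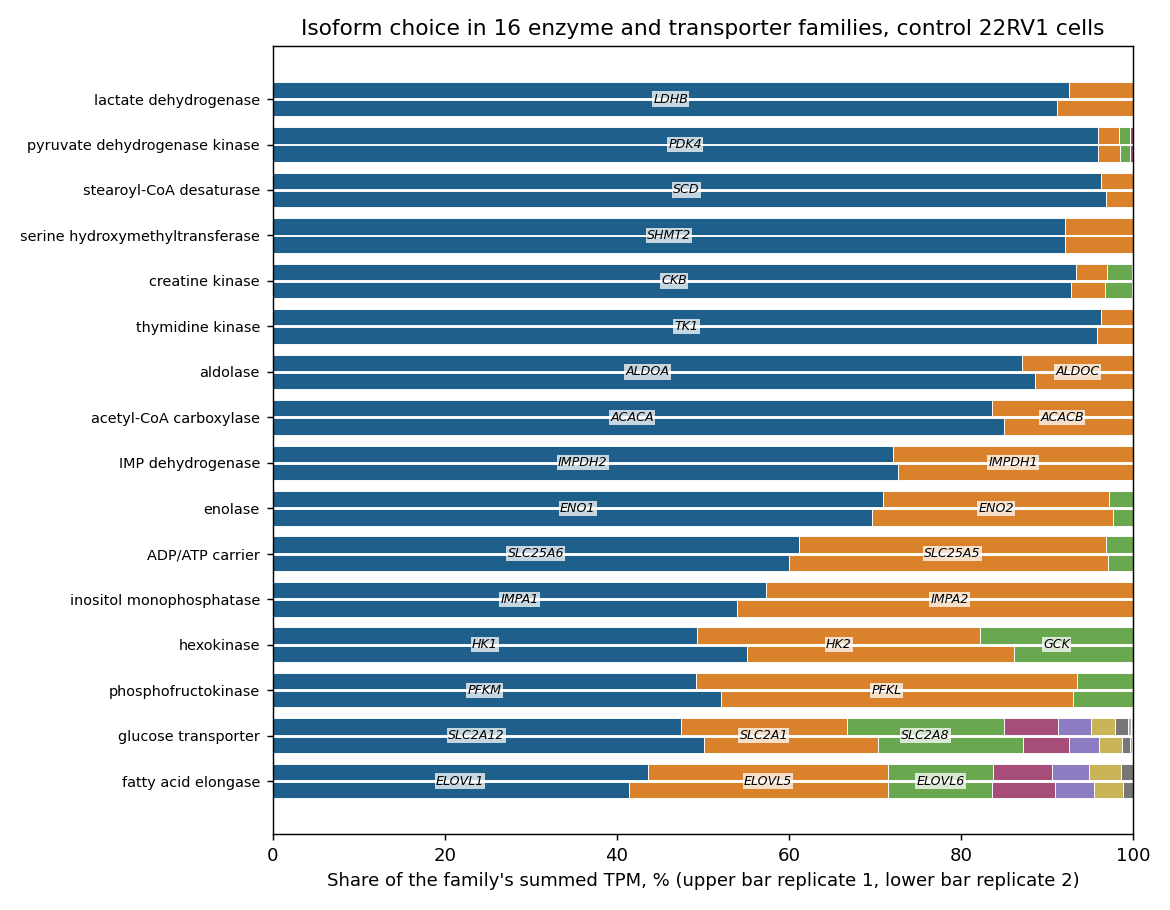
Share of a family's summed TPM held by each listed member, in percent, for 16 families chosen to show narrow and broad use, with replicate 1 as the upper and replicate 2 as the lower bar. The leading member is drawn first, from the left. LDHB lies at 92.6% and 91.1%, IMPDH2 at 72.0% and 72.7%, and IMPA1 at 57.4% and 54.0%.

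In 6 families the leading and the next member overlapped between libraries, namely IDH1 with IDH2, GOT1 with GOT2, ACSL3 with ACSL1, SLC5A3 with SLC2A13, UCKL1 with UCK1, and ATP5MC1 with ATP5MC2. The leader was the same by longest transcript in 43 of the 48 families and by reads alone in 41. The share moved by at most 5.79 percentage points between the libraries.

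Several further sets, assembled after values were seen, bear on prostate physiology and on growth. The prostate is known for zinc and polyamine content. SLC39A1, a zinc importer, stood at 959 and 1012 TPM and SLC39A6 at 361 and 420. ODC1, which makes putrescine, was at 271 and 325, and OAZ1, the antizyme that restrains it, at 945 and 942. CCND1, cyclin D1, stood at 1269 and 1559 TPM with its kinase CDK4 at 288 and 304. CDKN1B, a cyclin-dependent kinase inhibitor, was at 527 and 473. The tumour suppressor RB1 stood lower, at 27.0 and 29.3.

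At the low end, 7 listed genes had 0 reads in both control libraries: FGF8, GJD2, KRT6A, MSMB, OR51E1, PRSS41 and SFTPA2. They include a growth factor, a gap junction protein, a keratin, an olfactory receptor and a surfactant protein. A sum of 0 reads has a 95% exact Poisson upper bound of 3.69 reads, which covers counting error only. For KRT6A, 3 reads equal 0.119 and 0.121 TPM. These genes had a row through reads in the knockdown libraries, so being listed and at 0 follows in part from how the table was made. A further 13 genes had 1 to 3 reads over both libraries and 13 had 4 to 6. Of these 33 genes, 24 were protein coding. KRT14 and SLC22A3, a transporter of organic cations, had a single read, in replicate 2.

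Low levels were thinly supported. The 1827 genes under 1 TPM had a median of 19 and 19 reads, and 194 genes had under 10 reads in each library. Of the genes under 1 TPM, 1295 were protein coding.

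The control libraries agreed closely at moderate levels and less so for very short genes. Across 17750 genes Spearman's rho was 0.995, a description across genes, which are not independent replicates. On the deposited values with 1 added, 273 genes differed more than 2-fold, with a median of 29 reads summed over both libraries. Among 9479 genes at 10 TPM or more in at least 1 library, 18 did. Among those that differed most were SNORA65, SNORD46, IGHVIII-38-1, SNORD14A, SNORA26, HIST1H3B and MT-TG, which are mostly small RNAs or pseudogenes. Of 8661 protein-coding genes among them with at least 500 exon bases, 0 differed more than 2-fold and 3 more than 1.5-fold. The libraries still differed by more than counting noise, with a chi-square of 14.6 per gene where sampling alone gives about 1, over 17473 genes with at least 20 reads. Gene length moved with the difference: among genes at 10 TPM or more, the longest (5224 to 27174 exon bases) had a median log2 ratio of replicate 2 over replicate 1 of 0.14, and the shortest (59 to 1769) -0.01. Whether length plays a part in the values above was not tested.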

How the data were processed

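Poly(A) RNA was sequenced in all 6 libraries, and only the 2 shLuc libraries were described. Per the submitters' processing notes, Trimmomatic 0.36, STAR 2.5.2b, Subread 1.5.2 with featureCounts, DESeq2 and GRCh38 were used. Per the labels' protocols, uniquely placed reads in exons were counted by gene. The annotation release, and whether strand was kept, are details not given in the sources used. The deposited signal values are normalized counts, which the authors had divided by 1 size factor per library, as the values show. The deposited table also holds the authors' log2 fold change, p-value and adjusted p-value for a comparison its header does not name, and these were not used as results. Dividing by the value of 1 read (0.900 and 0.875) gave whole reads, within 0.05 reads, for 100% and 99.98% of genes. No count test was run, because there is 1 group. The recovery was tested on simulated data.

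TPM was computed from recovered reads and total exon length in GENCODE 29 (GRCh38) for 17750 genes, and the 61 without a length were left out of levels. A gene name table gave symbols for 16275 genes, and GENCODE for 1475. Motif letters were searched in RefSeq windows. Python 3.11.15, pandas 2.3.3, numpy 2.4.6 and scipy 1.17.1 were used. Genes were named by rule: the 30 highest nuclear genes, the 10 with most reads, the 4 highest members of each list and those at 0 reads or with no row, the leading and next member of each family, the 8 that differed most between libraries, and IMPA1 and IMPDH2. Other members named were chosen after their values were seen, and certain genes covered by the rule are left unreported. The members and lists were chosen with earlier results of these data known. Alternatives changed the length, the total, the thresholds and the libraries used.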

Additional observations from a re-analysis of the deposited data

Results flagged for a closer look

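Listed genes with 0 reads in both control libraries had a row through reads in the 4 knockdown libraries. That such reads exist was therefore given by how the table was made. Only their spread over those libraries is described here. The description of the control cells otherwise uses the knockdown libraries only to say why genes at or near 0 had a row. Summed over those 4 libraries, FGF8 had 184 reads, GJD2 532, KRT6A 67, MSMB 96, OR51E1 81, PRSS41 127 and SFTPA2 105. The reads were spread unevenly. GJD2, a gap junction protein of neurons, had 0 and 0 reads in shIMPA1 and 254 and 278 in shIMPDH2. PRSS41, a serine protease, had 0 and 1 in shIMPA1 and 57 and 69 in shIMPDH2. FGF8, a fibroblast growth factor, had 67 and 66 in shIMPA1 and 31 and 20 in shIMPDH2. KRT6A had 2 and 29 reads in the shIMPA1 libraries, MSMB 3 and 15, and SFTPA2 2 and 36, so replicate 2 of shIMPA1 was the higher in each. The same held for KRT5, with 0 and 103, and KRT14, with 2 and 63. Both shIMPDH2 libraries also held reads of these genes. There KRT6A had 17 and 19, MSMB 36 and 42, SFTPA2 30 and 37, KRT5 69 and 75, and KRT14 48 and 33. These differences were not tested.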

How the results depend on the processing

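The 15923 genes at 1 TPM or more stayed within 1.5 times that count under each of the 9 alternatives run, from 14368 at a threshold of 2 TPM to 16907 at 0.5, and without replicate 1 or 2 they numbered between 15858 and 15874. The 100 most abundant genes held 30.1% of the level on average, 19.7% by reads without length scaling and 26.1% with a total that left out mitochondrially encoded genes, and without either replicate between 29.4% and 30.9%. The 16 families led at 90% or more numbered between 14 and 16 under 6 alternatives. Genes with 0 reads numbered 7, but 20 with at most 3 reads in the group, and between 10 and 13 in a single library (an alternative chosen after seeing the data). Genes that differed more than 2-fold between the control libraries numbered 273, but 12 with a pseudocount of 10 and 177 among genes with a mean of at least 10. KLK3 averaged 7.93 TPM, 9.68 with the longest transcript as length and 8.69 without mitochondrial genes in the total. No paired analysis was possible because only 1 group was described and its values come from no test.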
